A study of Mus musculus with 8 samples.

Results

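The genes described here build the turnover machinery of the extracellular matrix: the matrix metalloproteinases (Mmp), their tissue inhibitors (Timp), the ADAMTS proteases, the lysyl oxidases (Lox and Loxl1 to Loxl4) and the plasminogen activators Plau and Plat with the receptor Plaur. They were chosen by symbol alone, and 54 of the 36432 genes in the files qualified: 23 Mmp, 4 Timp and 19 Adamts genes, 5 lysyl oxidases and 3 genes of plasminogen activation. Expression was measured by sequencing poly(A) RNA of whole mouse pancreas in 4 control and 4 Gata6-deleted libraries. The controls had the genotype Ptf1a-Cre +/KI and the second group the genotype Ptf1a-Cre +/KI; Gata6 lox/lox, all at an age of 6 to 8 weeks on a mixed strain. Both groups therefore carried the Cre recombinase gene knocked into 1 allele of Ptf1a, which is active in the progenitors of the pancreatic epithelium, so fibroblasts, blood cells and vessels would not be its targets. The question is what changes in the adult organ when that epithelium is made to lose Gata6, which encodes a GATA family transcription factor. The labels do not say whether each library is a separate mouse, and p-values measure only the spread between these libraries.

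Matrix metalloproteinases are zinc proteases made as inactive precursors, and together they cut collagens, laminins, fibronectin and proteoglycans. Timp proteins block their active site, and Timp2 has the further role of bringing the precursor of Mmp2 to Mmp14, which activates it at the cell surface. ADAMTS proteases trim procollagens and cut large proteoglycans, lysyl oxidases crosslink collagen and elastin fibres, and plasmin, formed by Plau and Plat, degrades fibrin and activates several metalloproteinases. In the pancreas, stellate cells, other fibroblasts and macrophages are known sources of many of these products, while acinar cells are mainly known for digestive enzymes.

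The level of the targeted gene did not check the labels. Gata6 stood at 2.76, 2.12, 2.62 and 2.45 in controls 1 to 4 and at 4.81, 5.12, 4.90 and 4.12 in the libraries labelled Gata6-deleted, in rescaled FPKM (deposited fragments per kilobase, scaled for depth by the authors and here divided by 100000). It was thus higher, not lower, in the second group (log2 fold change 0.72, SE 0.11, limma adjusted p = 0.0443, and 0.0537 to 0.637 under the 18 alternatives that ended the call), and a value per gene does not resolve the floxed exons. The 4 libraries of that group are called labelled libraries 1 to 4 below, and every direction is relative to these labels. Fragment numbers implied by the deposited intervals summed to 6020901 to 7304521 in the controls against 4815873 to 7451554 in the labelled libraries. These sums leave out 8 digestive enzyme genes that lacked an estimate in some library. Per unit of FPKM, labelled libraries 1 and 3 had 4.75 and 4.32 times the implied fragments of control 1 in the median gene. The other libraries had at most 1.57 times. Genes above 0 numbered 23024 and 22715 in labelled libraries 1 and 3, against 18345 to 20193 in the others. Values near 0 are thus less precise in the others. Labelled libraries 1 and 3 stand apart: 11 acinar markers summed to 2042 and 25220 rescaled FPKM there, against 150000 and 184200 in labelled libraries 2 and 4 and 296700 to 402700 in the controls. Control 1 and labelled libraries 1, 3 and 4 have titles starting with BKD and express the Y-linked gene Eif2s3y (5.34 to 13.7), while controls 2 to 4 (ASK) and labelled library 2 (BSH) express Xist (17.3 to 32.0), so title prefix and sex are partly confounded with the group.

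Promoter sequences are shown for 3 genes: the inhibitor Timp1, the matrilysin Mmp7 and the stromelysin Mmp3. They had the largest fold changes among those with a RefSeq promoter entry whose start was seen in an annotated transcript. Whether it coincides exactly with the transcript start was not tested. Each sequence is the 250 bases before the start in RefSeq on GRCm38.p6, on the plus strand, at chrX:20869916-20870165 for Timp1, chr9:7691840-7692089 for Mmp7 and chr9:7445572-7445821 for Mmp3. Capitals mark matches, on either strand, to 4 short motifs: TGANTCA of AP-1 (Fos and Jun dimers), AGGAAG of PEA3 (Ets factors), TATAAA of the TATA box and AGATAA of GATA factors.
Timp1: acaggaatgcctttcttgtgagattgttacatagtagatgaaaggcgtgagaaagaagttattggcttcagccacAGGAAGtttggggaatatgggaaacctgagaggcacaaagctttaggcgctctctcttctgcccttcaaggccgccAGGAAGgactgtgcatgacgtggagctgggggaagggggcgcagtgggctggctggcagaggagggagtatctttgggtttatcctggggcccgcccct
Mmp7: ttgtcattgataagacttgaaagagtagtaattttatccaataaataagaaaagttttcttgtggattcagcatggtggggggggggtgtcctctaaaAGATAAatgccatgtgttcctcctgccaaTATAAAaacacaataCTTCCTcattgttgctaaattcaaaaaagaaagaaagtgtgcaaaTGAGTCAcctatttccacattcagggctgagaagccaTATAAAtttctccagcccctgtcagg
Mmp3: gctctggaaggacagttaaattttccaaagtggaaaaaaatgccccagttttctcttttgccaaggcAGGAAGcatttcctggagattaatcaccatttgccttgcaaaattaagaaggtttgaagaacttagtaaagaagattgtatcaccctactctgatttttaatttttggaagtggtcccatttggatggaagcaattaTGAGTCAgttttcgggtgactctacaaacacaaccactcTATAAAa
No matches overlap in these 3 windows. An AP-1 match begins at position -63 in Mmp7 and -46 in Mmp3, counted from the start, and PEA3 matches begin at -175 and -99 in Timp1, -108 in Mmp7 and -183 in Mmp3. The TATA letters begin at -123 and -26 in Mmp7 and at -7 in Mmp3, and the GATA letters at -152 in Mmp7 alone of these. Entries were found for 34 of the 54 genes (37 windows) and for 14 of the 26 tested below. AP-1 letters were in 9 of the 37 windows (24.3%) against 6.75% of all 32851 windows of the same length, PEA3 letters in 15 (40.5%) against 29.5%, TATA letters in 9 (24.3%) against 12.4% and GATA letters in 3 (8.11%) against 9.99%. Among tested genes with an entry the AP-1 letters were in Mmp3, Mmp7 and Plaur (position -69). A match is a stretch of letters and not a measured binding site.

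Testing required a mean over the 8 libraries of 1 rescaled FPKM or more, which 26 of the 54 genes reached: 9 Mmp, 3 Timp, 7 Adamts, 4 lysyl oxidase and all 3 plasminogen activation genes. No gene of the 26 passed limma at an adjusted p under 0.05 in either direction, against 0.219% of all 11860 genes tested that were called higher and 0.194% called lower. The adjusted p-values ran from 0.0818 for Mmp15 to 0.677 for Adamts1. Without adjustment, 16 of the 26 (61.5%) had p under 0.05 with a higher value in the labelled libraries and 0 with a lower one, where 17.9% and 12.2% of all genes tested did so. In 10 of the 26 (38.5%) every labelled library was above every control, against 10.9% of all genes, and 0 were wholly below, against 7.62%. The log2 fold change was above 0 in 23 of the 26, against 6864 of all 11860 genes tested. Its median was 0.75 against 0.10 over all genes tested. Without any expression minimum, the median over the 51 genes with a value above 0 was 0.303, against 0.041 over the 25129 genes then tested. Because 10 of the 26 had a control mean under 1 and so passed the minimum only through the labelled libraries, these shares describe the tested genes and are no support for a change of the family. Of the other 16, 13 had a positive fold change and 4 did not overlap (Timp2, Mmp14, Mmp15 and Lox). The shares over all genes with such a control mean were not counted, so these numbers are a description only.

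**Figure D1:**
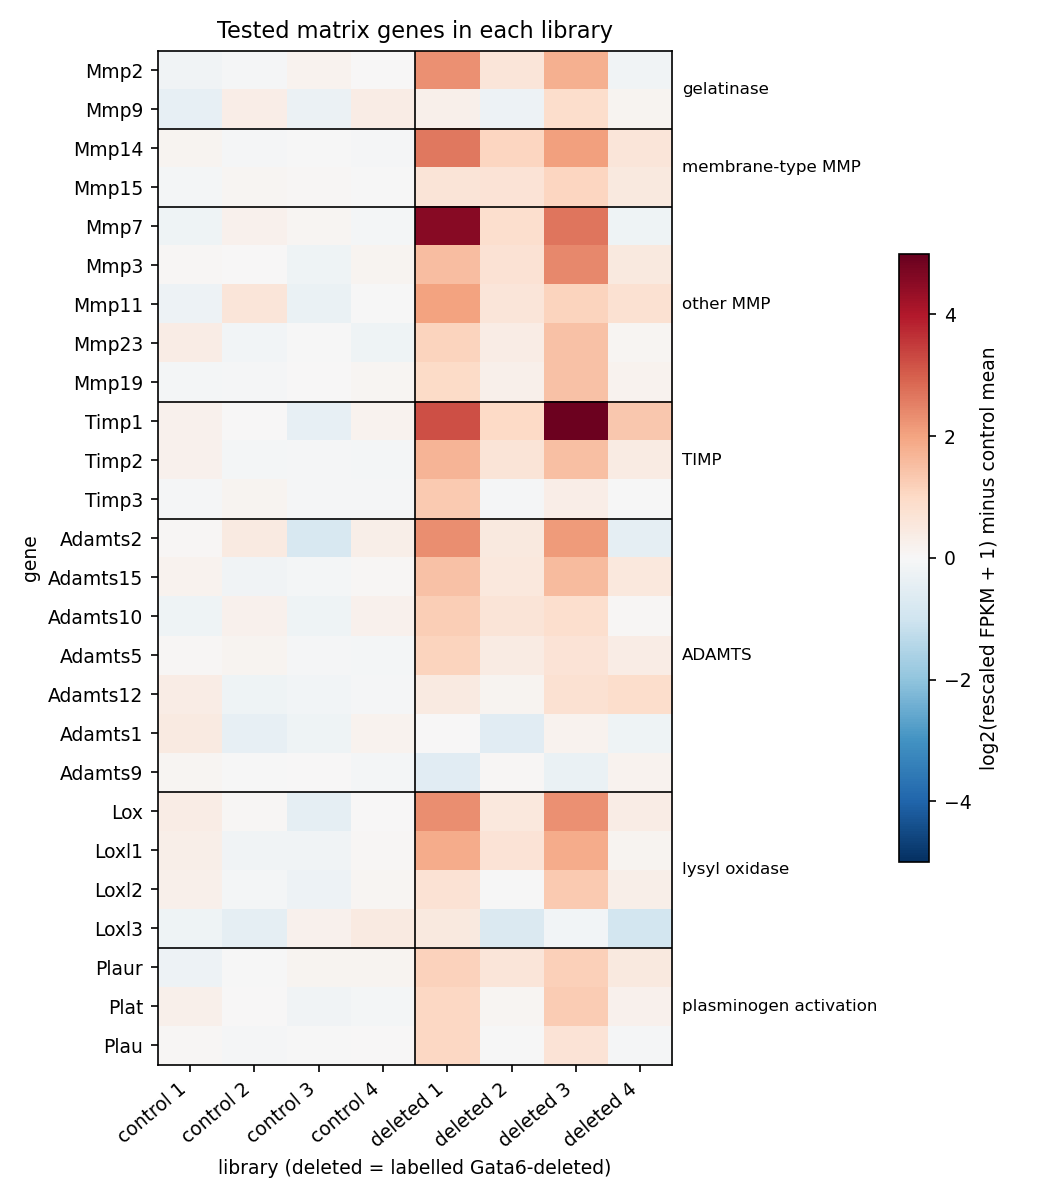
Each row is a tested gene and each column a library, and the colour is log2(rescaled FPKM + 1) minus the mean of the 4 controls, red for higher and blue for lower. Labelled libraries 1 and 3 are the reddest columns in most rows, and labelled libraries 2 and 4 are paler. Blue cells among the labelled libraries are deepest for Loxl3 in library 4 (-0.93) and library 2 (-0.73), Adamts1 in library 2 (-0.57) and Adamts9 in library 1 (-0.57).

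The group difference was uneven across the labelled libraries. The median deviation of the 26 genes from the control mean was 1.20, 0.51, 1.27 and 0.20 on the log2 scale in labelled libraries 1 to 4. In the controls it was -0.07 to 0.06. Over all genes tested it was 0.16, -0.01, 0.17 and 0.03 in labelled libraries 1 to 4. Labelled libraries 1 and 3 held the 2 highest values of all 8 libraries in 20 of the 26 genes. Of the 26 genes, 23, 16, 23 and 14 were above all 4 controls in labelled libraries 1 to 4. Over all 11860 genes tested these counts were 5217, 3036, 5174 and 3081. The larger counts in labelled libraries 1 and 3 are therefore not particular to the matrix genes. With labelled library 4 left out, 14 of 27 tested genes (51.9%) passed limma as higher, against 11.6% of all genes tested, namely Adamts5, Adamts10, Adamts15, Lox, Loxl1, Mmp2, Mmp3, Mmp7, Mmp14, Mmp15, Mmp23, Plaur, Timp1 and Timp2. Leaving out any other single library gave 0. Among these 14, Adamts5, Adamts10, Adamts15, Mmp3, Mmp7, Plaur and Timp1 averaged under 1 in the controls. They reached the minimum only through the labelled libraries, and the library left out had the lowest median deviation. The share is therefore no support for a change of the family. With labelled libraries 1 and 3 both left out, 18 of the genes reached the minimum and their median log2 fold change was 0.178 against -0.008 over all genes tested. Of these, Adamts5, Lox, Mmp14, Mmp15 and Timp2 were higher without overlap (27.8%, against 12.1% of all genes), which for genes without overlap in all 8 libraries follows from their choice, and Loxl3 was lower without overlap, as were 11.3% of all genes. Timp1, Mmp3, Mmp19, Plaur and Adamts15 were then under the minimum, although labelled libraries 2 and 4 were above every control in each of them.

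**Figure D2:**
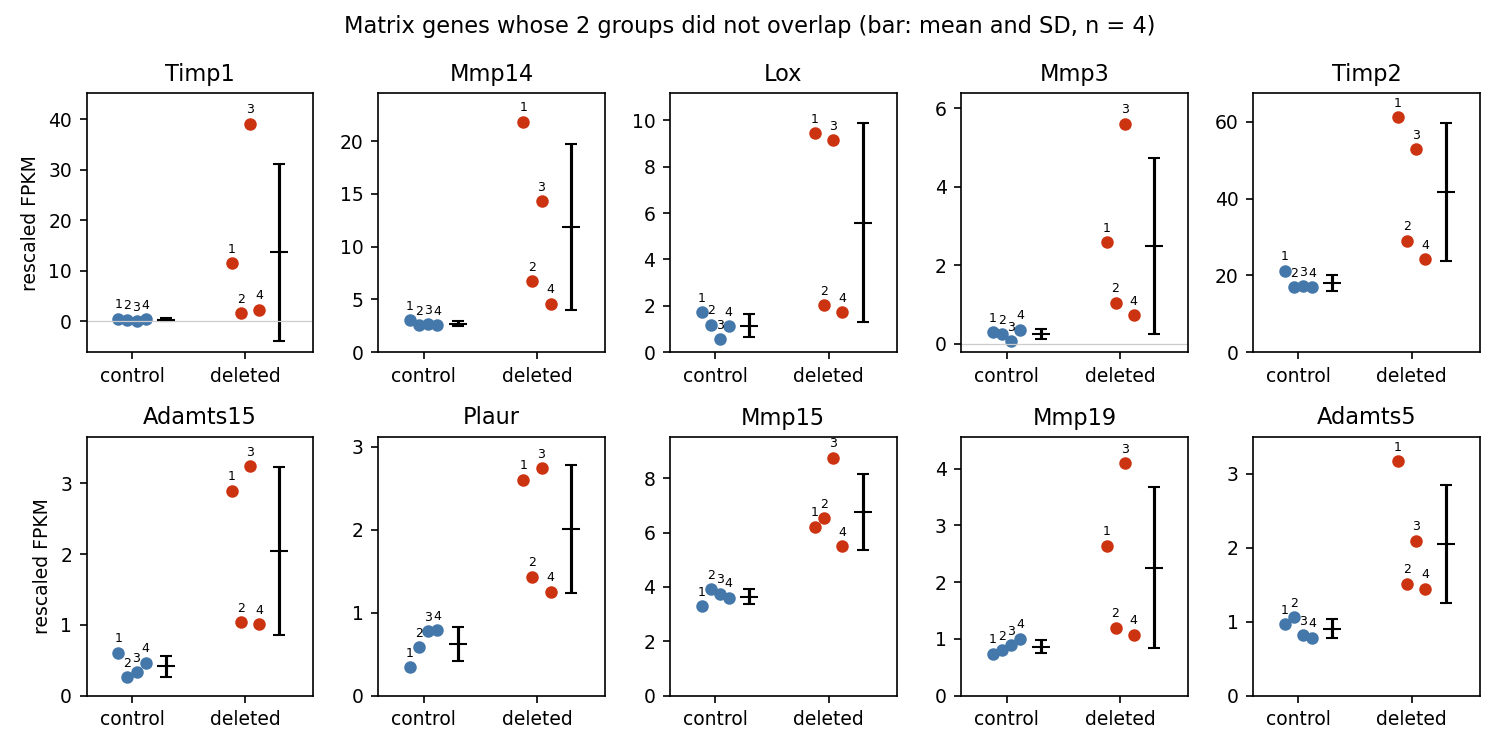
Rescaled FPKM in the 4 control and the 4 labelled libraries (deleted) for the 10 genes whose groups did not overlap, with the replicate number above each point and a bar for the mean and SD (n = 4). The vertical scale differs by gene, and labelled libraries 1 and 3 lie above 2 and 4 in every panel except that of Mmp15, where library 1 lies below library 2.

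The inhibitors Timp2 and Timp3 were the most abundant of the tested genes in control pancreas, while Timp1 was near the end of the order. Timp2 averaged 18.1 ± 2.12 rescaled FPKM (SD, n = 4), Timp3 10.8 ± 0.731 and the gelatinase Mmp2 5.16 ± 0.636, and the control values of these 3 did not overlap with each other. From Mmp2 downward each gene overlapped with the next in the order: Loxl1 (4.08), Mmp15 (3.64), Plau (3.31), Adamts2 (2.90), Mmp14 (2.70), Plat (2.56), Mmp23 (2.53), Loxl2 (2.08), Adamts1 (1.87), Adamts9 (1.54), Loxl3 (1.44), Lox (1.15) and Mmp9 (1.10). The other 10 tested genes averaged under 1 in the controls, down to 0.158 for Mmp7. FPKM is a value per length, so these levels can be compared between genes.

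Timp2 (chr11:118162383-118217054, mm9) was at 21.25, 16.9, 17.1 and 17.0 rescaled FPKM in controls 1 to 4 and at 61.15, 29.1, 52.8 and 24.2 in labelled libraries 1 to 4. All 4 labelled libraries lay above the controls, with a ratio of means of 2.31 and a log2 fold change of 1.07 (SE 0.31, limma adjusted p = 0.106). Timp1, an inducible inhibitor of most secreted metalloproteinases at chrX:20447292-20451861, was nearly silent in the controls, at 0.561, 0.326, 0 and 0.4997. In labelled libraries 1 to 4 it was at 11.5, 1.62, 39.1 and 2.34, the largest log2 fold change of the 26 genes (2.62, SE 0.79, adjusted p = 0.110). The groups did not overlap, but the 4 labelled values spread from 1.62 to 39.1, and the control values rest on an implied 0 to 3.26 fragments per library. Timp3, which stays bound to the matrix and also inhibits membrane sheddases, differed mainly in 1 library: it was at 10.4, 11.85, 10.4 and 10.3 in the controls and at 27.9, 10.3, 13.9 and 10.5 in labelled libraries 1 to 4 (log2 fold change 0.39, SE 0.29, adjusted p = 0.374). Timp4 fell just short of the minimum with a mean of 0.994, at 0.189 to 0.757 in the controls against 3.68, 0.560, 1.43 and 0.732 in the labelled libraries. The summed level of the 4 inhibitors was 27.9 to 33 in the controls against 104.3, 41.5, 107.2 and 37.7 in labelled libraries 1 to 4.

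Timp1, Timp3 and Timp4 lie inside the genes Syn1, Syn3 and Syn2, and no source used here says that the counting used strand, so reads in the overlap cannot be assigned to one of them with certainty. Syn1 was at 0.036 to 0.058 in the controls and at most 0.373 in the labelled libraries, well under Timp1 there. Syn2 was at 0.851 to 1.51 in the controls against 3.05, 1.98, 4.29 and 1.67 in labelled libraries 1 to 4, above Timp4 in most libraries.

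Of the gelatinases, which cut denatured collagen and basement membrane collagen, Mmp2 was the more abundant. It was at 4.45, 4.93, 5.97 and 5.27 rescaled FPKM in the controls and at 28.65, 8.22, 19.7 and 4.38 in labelled libraries 1 to 4. Labelled library 4 was below all controls and the other 3 were above them, and the log2 fold change of 1.11 (SE 0.49) had an adjusted p of 0.167. Mmp9, a product of neutrophils and macrophages among others, was at 0.535, 1.56, 0.650 and 1.65 in the controls and at 1.41, 0.697, 2.69 and 1.24 in the labelled libraries. The groups overlapped (log2 fold change 0.24, SE 0.29, adjusted p = 0.564), and with labelled libraries 1 and 3 left out the sign turned.

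The membrane-type enzymes Mmp14 and Mmp15 are anchored at the cell surface, and Mmp14 cuts fibrillar collagen and activates the Mmp2 precursor. Mmp14 (chr14:55050441-55060095) was at 3.04, 2.57, 2.63 and 2.55 in the controls and at 21.8, 6.70, 14.3 and 4.602 in labelled libraries 1 to 4. Every labelled library was above the controls, and the ratio of means was 4.39 (log2 fold change 1.58, SE 0.40, adjusted p = 0.101, with 0.0311 to 0.637 over the alternatives). The control values correspond to 63, 63, 57 and 78 implied fragments. Mmp15 (chr8:97876168-97898193) was at 3.29, 3.92, 3.75 and 3.60 in the controls and at 6.22, 6.52, 8.76 and 5.50 in the labelled libraries. Its 4 labelled values lay close together compared with those of Mmp14, and it had the lowest adjusted p of the 26 genes (ratio of means 1.85, log2 fold change 0.73, SE 0.15, adjusted p = 0.0818). The other 4 membrane-type genes, Mmp16, Mmp17, Mmp24 and Mmp25, were under the minimum and reached at most 0.548 in any library. Mmp24 was at 0 in all 4 controls.

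Among the other secreted metalloproteinases, the matrilysin Mmp7 (chr9:7692086-7699585), a small enzyme of glandular epithelia, had the highest single value. It was at 0, 0.323, 0.229 and 0.0816 in the controls and at 26.3, 1.05, 6.36 and 0 in labelled libraries 1 to 4. Labelled libraries 1 to 3 were above all controls and labelled library 4 had none (log2 fold change 1.97, SE 0.90, adjusted p = 0.178). The stromelysin Mmp3 (chr9:7445822-7455972), which cuts many matrix proteins and activates other Mmp precursors, was at 0.290, 0.252, 0.0643 and 0.363 in the controls and at 2.59, 1.05, 5.61 and 0.723 in the labelled libraries. Its groups did not overlap (log2 fold change 1.29, SE 0.41, adjusted p = 0.114), and its controls rest on an implied 1 to 7.93 fragments. Mmp19 was at 0.742, 0.799, 0.891 and 1.00 in the controls and at 2.64, 1.20, 4.10 and 1.08 in labelled libraries 1 to 4, also without overlap (log2 fold change 0.71, SE 0.29, adjusted p = 0.151). Labelled libraries 2 and 4 exceeded the highest control of Mmp19 only slightly, and the gene overlaps 1110012D08Rik (0.8287 to 1.61 in the controls against 2.52, 1.48, 3.65 and 1.37 in labelled libraries 1 to 4), so its reads cannot all be assigned with certainty. Mmp23 was at 3.56, 2.17, 2.41 and 1.99 in the controls and at 6.62, 3.57, 8.67 and 2.71 in the labelled libraries, where only labelled library 4 was within the control range. Mmp11, stromelysin 3, had values of 0.155 to 1.18 in the controls against 4.86, 1.17, 2.14 and 1.45 in the labelled libraries (log2 fold change 1.13, SE 0.35, adjusted p = 0.113). It contains Chchd10, which went the other way (24.3 to 37.7 in the controls against 5.52 to 19.0 in the labelled libraries), so its values are uncertain.

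Mmp3 and Mmp7 belong to a cluster of 10 Mmp genes on chromosome 9, between 7272514 and 7699585 in mm9, that also holds Mmp1a, Mmp1b, Mmp8, Mmp10, Mmp12, Mmp13, Mmp20 and Mmp27. The other 8 were under the minimum. The summed level of the cluster was 0.370 to 1.14 in the controls against 33.6, 2.82, 14.3 and 1.37 in labelled libraries 1 to 4, each above the highest control. Mmp12, the macrophage elastase, was the next highest gene of the cluster, with at most 0.567 in the controls against 4.21, 0.595, 1.66 and 0.336 in the labelled libraries. The collagenases Mmp8 and Mmp13 stayed at or under 0.241 in every library, and Mmp1a and Mmp1b were listed at 0 in all 8. Over all 23 Mmp genes the sum was 16.7 to 18.8 in the controls against 107.9, 31.7, 76.6 and 23.3 in labelled libraries 1 to 4.

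**Figure D3:**
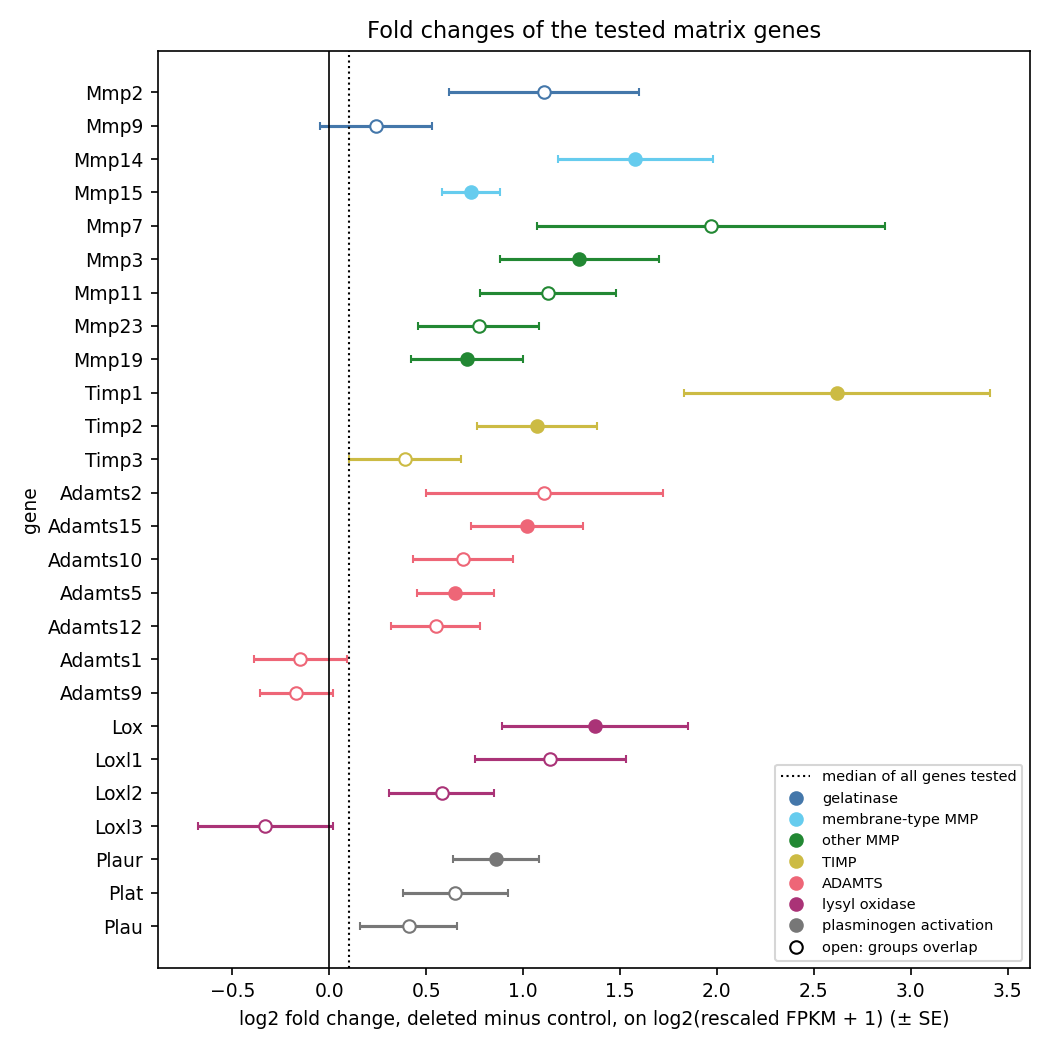
The log2 fold change (labelled minus control, on log2(rescaled FPKM + 1)) of each tested gene with its SE, coloured by role, with filled points for genes whose groups did not overlap and a dotted line at 0.10, the median of all genes tested. Timp1 and Mmp7 lie farthest to the right with the widest errors, Mmp15 has a narrow error, and only Loxl3, Adamts9 and Adamts1 lie to the left of 0.

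The ADAMTS genes were divided. Adamts15 and Adamts5, which cut aggrecan-type proteoglycans, were higher in every labelled library than in any control. Adamts15 (chr9:30706740-30730037) was at 0.604, 0.259, 0.335 and 0.463 in the controls and at 2.89, 1.035, 3.24 and 1.01 in labelled libraries 1 to 4 (log2 fold change 1.02, SE 0.29, adjusted p = 0.106). Adamts5 (chr16:85858415-85901370) was at 0.969, 1.06, 0.815 and 0.781 in the controls and at 3.17, 1.51, 2.10 and 1.44 in the labelled libraries (log2 fold change 0.65, SE 0.20, adjusted p = 0.111). Its neighbour Adamts1 on chromosome 16, which cuts versican, showed no such difference: it was at 2.84, 1.10, 1.42 and 2.13 in the controls and at 1.81, 0.890, 2.17 and 1.42 in the labelled libraries (log2 fold change -0.15, SE 0.24, adjusted p = 0.677). Adamts2, the procollagen N-proteinase, was the highest ADAMTS gene and the most variable, at 2.84, 4.08, 1.15 and 3.54 in the controls against 17.4, 4.20, 15.0 and 1.71 in the labelled libraries (log2 fold change 1.11, SE 0.61, adjusted p = 0.238). Adamts10, linked to fibrillin microfibrils, had a log2 fold change of 0.69 (SE 0.26, adjusted p = 0.136) and Adamts12 one of 0.55 (SE 0.23, adjusted p = 0.154), each with 3 of 4 labelled libraries above the controls. Adamts9, another versican protease, was at 1.39 to 1.70 in the controls against 0.707, 1.61, 1.02 and 1.88 in the labelled libraries, so that labelled libraries 1 and 3 were below all controls and labelled library 4 above them (log2 fold change -0.17, SE 0.19, adjusted p = 0.548). Equal-sum scaling and scaling to the implied fragment totals turned the sign of Adamts1 and Adamts9 to positive. The other 12 ADAMTS genes were under the minimum, the highest of them Adamts7 (0.180 to 0.961 in the controls against 0.612 to 1.57 in the labelled libraries).

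Of the crosslinking enzymes, Lox itself was at 1.73, 1.18, 0.547 and 1.13 in the controls and at 9.46, 2.03, 9.14 and 1.73 in labelled libraries 1 to 4. The groups just failed to overlap, since labelled library 4 (1.732) and control 1 (1.730) were nearly equal, and the ratio of means was 4.88 (log2 fold change 1.37, SE 0.48, adjusted p = 0.124). Loxl1, which acts in elastic fibre assembly, was at 5.23, 3.45, 3.45 and 4.18 in the controls and at 17.0, 7.14, 17.2 and 4.58 in the labelled libraries, with labelled library 4 within the control range (log2 fold change 1.14, SE 0.39, adjusted p = 0.122). Loxl2, which crosslinks collagen IV among other substrates, was at 1.54 to 2.66 in the controls against 4.04, 2.01, 6.45 and 2.78 in the labelled libraries (log2 fold change 0.58, SE 0.27, adjusted p = 0.187). It lies inside Gm16867, which had 2.93 to 4.22 in the controls against 1.54 to 3.23 in the labelled libraries, with the same doubt about shared reads. Loxl3 was at 1.04, 0.741, 1.73 and 2.27 in the controls and at 2.29, 0.426, 1.15 and 0.247 in the labelled libraries (log2 fold change -0.33, SE 0.35, adjusted p = 0.508). It is the crosslinker without a higher mean in the labelled group, and its sign turned under equal-sum scaling and scaling to the implied fragment totals. It overlaps Htra2, which was at 17.0 to 22.8 in the controls against 8.64 to 16.0 in the labelled libraries, and reads in the overlap cannot be assigned with certainty. Loxl4 was under the minimum, with at most 0.646.

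The 3 genes of plasminogen activation all reached the minimum. Plaur, the urokinase receptor that holds Plau at the cell surface (chr7:25247519-25260892), was at 0.341, 0.584, 0.781 and 0.786 in the controls and at 2.61, 1.44, 2.74 and 1.25 in labelled libraries 1 to 4. All labelled libraries were above the controls, and the ratio of means was 3.23 (log2 fold change 0.86, SE 0.22, adjusted p = 0.102). The urokinase gene Plau was at 3.46, 3.14, 3.22 and 3.40 in the controls and at 7.78, 3.28, 5.92 and 3.09 in the labelled libraries, where labelled libraries 1 and 3 were above the control range and labelled library 4 just below it (log2 fold change 0.41, SE 0.25, adjusted p = 0.271). Plat, the tissue activator, was at 3.24, 2.56, 2.09 and 2.33 in the controls and at 6.29, 2.76, 7.43 and 3.12 in the labelled libraries, with the same 2 libraries above (log2 fold change 0.65, SE 0.27, adjusted p = 0.158).

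By role, the median log2 fold change of the tested genes was 1.11 for the metalloproteinases, 1.07 for the inhibitors, 0.86 for the lysyl oxidases and 0.65 for both the ADAMTS and the plasminogen activation genes, against 0.10 over all genes tested. These medians include genes that reached the minimum only through the labelled libraries (Mmp3, Mmp7, Mmp11, Mmp19, Timp1, Adamts5, Adamts10, Adamts12, Adamts15 and Plaur), no gene in any role passed limma, and no difference between the roles was tested. Of the 28 genes under the minimum, 25 had a value above 0 in some library, and Mmp1a, Mmp1b and Mmp21 had none. In 21 of the 28 every library was under 0.5. The mean was higher in the labelled group in 22 of the 25 and lower in Adamts8, Adamts16 and Adamts17, without a test.

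Other genes of the same pathways were described by lists. Of 5 tested genes that regulate plasmin outside the activators, all 5 were higher in mean and 0 passed (median log2 fold change 1.15). Among them the plasminogen-binding pair Anxa2 (13.4 ± 2.91 in the controls, 35.6 ± 18.5 in the labelled libraries, SD, n = 4) and S100a10, and the clearance receptor Lrp1, had fold changes of 1.21, 1.17 and 1.15 on the log2 scale. Plasminogen itself (Plg), a liver product, was listed at 0 in all libraries. Of 15 tested genes for other matrix-cutting proteases, 13 were higher in mean, 0 passed and the median was 0.78. The cathepsins Ctsb and Ctss had log2 fold changes of 0.99 and 2.29 and the most abundant one, Ctsl, of -0.22. Furin, which activates the membrane-type metalloproteinases and Mmp11 inside the cell, lay below the controls in every labelled library (10.9 ± 1.58 against 7.35 ± 1.06, log2 fold change -0.51, SE 0.15, adjusted p = 0.111). Of 5 tested genes for other protease inhibitors, 3 were higher in mean and 0 passed (median 0.32), among them Serping1 (1.45) and Slpi (0.95), while the cathepsin inhibitor Cst3 was lower in every labelled library (-0.76, adjusted p = 0.122). The 3 tested ADAMTS-like genes, which lack a protease domain, were all higher in mean and 0 passed (median 0.50).

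The substrates of these enzymes had higher means as well. All 19 tested genes for collagens, elastin, laminins, fibronectin and proteoglycans had positive log2 fold changes, with a median of 0.89, 0 called and 8 without overlap (42.1%, against 10.9% of all genes). The most abundant were Dcn (77.1 ± 5.58 in the controls against 167.4 ± 80.5 in the labelled libraries, SD, n = 4), Col3a1 (50.3 ± 10.2 and 183.8 ± 147.7) and Col1a2 (21.9 ± 4.68 and 74.4 ± 55.1). Of 15 tested genes of collagen and elastin maturation, 13 were higher in mean and 0 passed (median 0.59), with log2 fold changes of 1.05 for both the collagen chaperone Serpinh1 and the procollagen enhancer Pcolce. P4hb, which is also a general folding enzyme of secretory cells, stood at -1.65 (SE 0.68, adjusted p = 0.152).

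Markers of other cell types differed between the same libraries. The fibroblast and stellate cell list shares Dcn, Lum, Col1a1, Col1a2 and Col3a1 with the substrates above. It also shares Acta2 with the smooth muscle list, so these lists are not separate observations. The 12 fibroblast and stellate cell markers were all higher in mean, with medians of 1.41, 0.40, 1.37 and 0.32 above the control mean on the log2 scale in labelled libraries 1 to 4, and their sum was 194.1 to 262.6 in the controls against 319.8 to 1095 in the labelled libraries. The 9 macrophage markers had medians of 2.62, 0.90, 2.58 and 0.55 and sums of 100.6 to 156.5 and 204.4 to 802.4, with 8 of 9 higher without overlap (against 10.9% of all genes tested) and 0 called. Both lists thus had the same library order as the matrix genes in broad terms, with labelled libraries 1 and 3 high and 4 lowest. This order was not particular to them. Duct and endothelial markers had it too, with medians of at most 0.92, and smooth muscle markers were also highest in labelled libraries 1 and 3. The 11 acinar markers were all lower in mean and 0 passed (median deviations of -7.25, -1.17, -3.44 and -0.88). Of them 9 were lower without overlap, against 7.62% of all genes tested. All 8 adipocyte markers were higher (2.14, 1.76, 1.49 and 1.8). Of these Cidec and Pck1 passed, against 0.219% of all genes tested that were called higher. Without overlap, 6 of the 8 adipocyte markers and 7 of the 12 fibroblast and stellate cell markers were higher and 0 lower, against 10.9% and 7.62% of all genes tested. Of 7 endothelial markers 5 were higher and 2 lower in mean (0.30, -0.03, 0.40 and -0.15), with sums of 36.0 to 42.9 in the controls against 32.4 to 47.8 in the labelled libraries. Neutrophil markers had sums of 1.90 to 54.4 and 7.19 to 57.4, with Ly6g at 0 in all controls, and lay on no common side. Median deviations in labelled libraries 1 to 4 were 0.92, -0.05, 0.47 and -0.17 for duct, 2.61, 0.72, 0.03 and -0.26 for islet, 0.19, 0.48, 0.96 and 0.38 for mesothelial, 0.69, 0.16, 0.75 and 0.27 for smooth muscle and -0.05, 0.60, 1.99 and 0.53 for lymphocyte markers. The part of these cell types in the matrix gene values was not tested. In RNA of a whole organ, more cells of a type and more RNA per cell cannot be told apart.

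**Figure D4:**
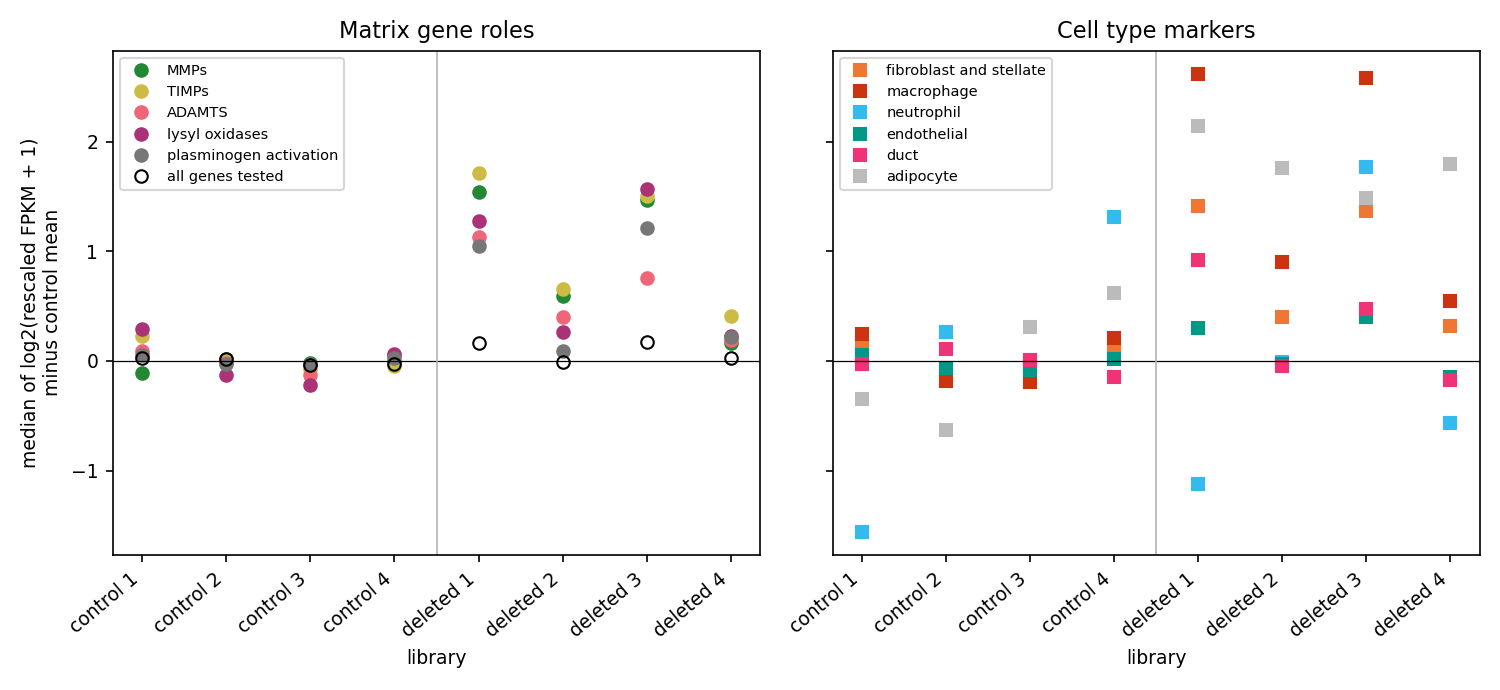
Each point is the median over the tested genes of a role (left) or of a marker list (right) of log2(rescaled FPKM + 1) minus the control mean, by library. All 5 roles are highest in labelled libraries 1 and 3 and near the controls in labelled library 4. Fibroblast, macrophage, duct and endothelial markers follow a like order. The endothelial markers stay between -0.15 and 0.40 in the labelled libraries.

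Within the libraries whose titles start with BKD (control 1 against labelled libraries 1, 3 and 4) the median log2 fold change of 29 tested genes was 0.933, with 18 higher (62.1%, against 37.4% of all genes) and 1 lower (Adamts1, against 28% of all genes) without overlap. Within the other titles (controls 2 to 4 against labelled library 2) it was 0.46 over 18 genes, with 12 higher (66.7%, against 29.2% of all genes) and 3 lower without overlap (Adamts1, Loxl3 and Timp3, against 34.4% of all genes). Each has a side of 1 library, and limma, which assumes that a lone library varies like the others, called 0 in both. With the prefix as a covariate the median was 0.756 and 0 genes passed. In both title comparisons some of the genes counted, such as Adamts5, reached the minimum only through the labelled libraries. The shares without overlap are therefore no support for a change of the family.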

How the data were processed

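The 8 poly(A) libraries of pancreas were made with 8 cycles of PCR from RNA with integrity numbers of 7.1 to 8.8, per the labels' protocols. Cufflinks 2.0.1, TopHat2 2.0.4, Bowtie and CASAVA 1.8 appear in the submitters' processing notes, with the builds mm9 and NCBIM37. The sources used here state neither strand, read length nor the scaling option. The authors deposited FPKM per gene with interval bounds, 36448 entries for 36432 gene IDs in each library, and 14 IDs on several entries were summed. Deposited FPKM summed to 2.34e+10 to 1.86e+11 per library, so all were divided by 100000 and called rescaled FPKM. Since the tables used here give no counts, count models were not used. Fragment numbers implied by the interval widths describe depth, and for genes with several transcripts they are no fragment count. The 8 genes without an estimate in some library were left out, none of them described here. Fragments shared by overlapping or closely related genes are divided by likelihood in Cufflinks, which makes their values uncertain.

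The genes that averaged 1 rescaled FPKM or more were tested with limma 3.58.1 in R 4.3.3, two-sided, with an intensity trend, on log2(rescaled FPKM + 1), with Benjamini-Hochberg adjustment across the 11860 genes and a threshold of 0.05. Fold changes are on this log2 scale and understate those of low genes. The genes, gene lists, tests and alternatives were chosen with earlier results of these data known, so no list is independent evidence of a direction. Every gene of the rule that reached the minimum is named. Values per library are given for those whose groups did not overlap and for the 2 of highest mean in each role, and for some others that were picked after their values were seen. From each pathway list up to 3 genes are named, those of highest mean where none passed, and Furin, Serpinh1, Pcolce and others beyond that were picked after their values were seen. Alternatives were other pseudocounts (0.1 and 5), no minimum or one of 5, 3 other scalings, limma without trend, each library left out, labelled libraries 1 and 3 left out, and the title prefix. Promoter sequences are from RefSeq (GRCm38.p6), matched by symbol. Gene positions follow the files (mm9) and count from 1.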

Additional observations from a re-analysis of the deposited data

Results flagged for a closer look

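In 52 groups of 4 libraries examined (26 genes in 2 groups), 3 control groups had a library far from the other 3 by Dixon's criterion, and chance alone would flag about 1 in 20 groups. Timp2 was at 21.25 rescaled FPKM in control 1, with a gap to the next library of 0.949 of the whole range. Timp3 was at 11.85 in control 2, with a gap of 0.934 of the range. Mmp14 was at 3.04 in control 1, with a gap of 0.831 of the range. In each case the other 3 controls lay close together, and for Timp2 and Mmp14 the highest control was still below the lowest labelled library.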

How the results depend on the processing

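Over 20 alternative settings, 20 of the 26 genes kept a positive log2 fold change wherever they were tested, and 6 changed sign in some setting. The 20 include all 10 genes that reached the minimum only through the labelled libraries, which ties their sign to the filter. Several of these, such as Timp1 and Mmp3, were under the minimum and untested in some settings. The count of kept signs is therefore no support for a change of the family. The count of genes passing limma as higher was 0 in all settings but 1, and ran from 0 to 14 when single libraries were left out, the 14 being without labelled library 4. The count higher without overlap, 10 with all libraries, ran from 8 to 17 when single libraries were left out (11.1% to 20.4% of all genes), and was 4 of 8 at a minimum of 5 (9.05% of all genes), 21 of 29 with scaling to the implied fragment totals (51.4% of all genes), 5 without labelled libraries 1 and 3 (12.1%) and 18 of 29 within BKD titles (37.4%). The count lower without overlap became 1 without labelled libraries 1 and 3 (11.3% of all genes), 1 within BKD titles (28%) and 3 within the other titles (34.4%). Fewer libraries make non-overlap easier to reach. The counts of higher genes, by limma or without overlap, include genes that reached the minimum only through the labelled libraries. The median log2 fold change, 0.75, became 0.303 without a minimum (51 genes), 0.363 with a pseudocount of 5, 1.10 with one of 0.1, 1.41 with an equal sum outside the digestive enzymes and 1.69 with implied totals, where the median of all genes itself moved from 0.10 to 0.832 and 1.12, and it became 0.178 without labelled libraries 1 and 3. With those same 2 scalings, in this order, the sign turned for Loxl3 (0.252 and 0.521), Adamts1 (0.458 and 0.780) and Adamts9 (0.376 and 0.614). Without labelled libraries 1 and 3 it turned for Mmp9 (-0.061), Timp3 (-0.047), Plau (-0.041) and Adamts9 (0.115), and within ASK and BSH titles for Mmp9 (-0.398), Timp3 (-0.073) and Adamts9 (0.073). Within BKD titles it turned for Loxl3 (0.023). Adamts1 ran from -0.2845 to 0.0047 when single libraries were left out, turning without control 1. The cause was not tested. No paired analysis was possible because the labels carry no replicate numbers, and those used here are in accession order.

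Control values of Timp1, Mmp3 and Mmp7 rest on an implied 0 to 7.93 fragments per library, which limits the precision of their fold changes. Other tested genes had implied control numbers as low, among them Adamts2 (0.740 to 5.03), Mmp11 (0.047 to 2.02), Mmp9 (0.677 to 5.92) and Loxl3 (3.28 to 6.91). Their deposited intervals were thus wide too, although such numbers are no fragment count for genes with several transcripts. Every level also depends on the scaling, as the medians above show.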
